A study of Mus musculus with 19 samples.

Results

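The ligands of the tumour necrosis factor (TNF) superfamily followed here are 9 genes: Tnf, Lta, Ltb, Tnfsf8, Tnfsf10, Tnfsf11, Tnfsf14, Cd40lg and Fasl. They were taken by gene symbol from both expression tables of the study, and each was listed with values, as 9 of 14290 genes in one table and 9 of 14818 in the other. RNA was sequenced from mouse regulatory T cells (Tregs), CD4 T cells that restrain other immune cells, in 19 libraries. All cells were YFP-positive Tregs of C57Bl/6 Foxp3-CRE-YFP mice, in which Cre recombinase is expressed from Foxp3, the gene of the factor that defines the Treg lineage. Wild-type (WT) mice carried this transgene alone, p65-deficient mice also carried p65 F/F and c-Rel-deficient mice also carried c-Rel F/F. These floxed alleles let Cre remove the NF-kB subunit encoded by Rela or by Rel in cells that express Foxp3. The stimulated set held 3 groups of 2 libraries each: WT with water, WT with pentoxifylline at 500 ug/mL diluted in water, and c-Rel-deficient, for which the labels name no diluent. All of these cells were cultured for 16 hours on plate-bound anti-CD3 (5 ug/mL) with soluble anti-CD28 (1 ug/mL) and interleukin 2 (10 ng/mL). The sorted set held 13 libraries of cells from spleen and lymph nodes, lysed without any culture. Of these, 6 were resting Tregs (rTreg, CD44lo), with 2 libraries each of WT, p65-deficient and c-Rel-deficient cells. The other 7 were activated Tregs (aTreg, CD44hi), with 3 WT, 2 p65-deficient and 2 c-Rel-deficient libraries. The labels do not say which libraries came from separate animals, so p-values measure the spread between these libraries, which may be partly technical.

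TNF superfamily ligands are made as trimeric proteins, most of them anchored in the membrane of the cell that makes them, and some are released by proteases. They bind receptors of the TNF receptor superfamily, which recruit TRAF or death domain adaptors and lead to NF-kB signalling, to cell death, or to both. Activated T cells are a major source of several of these ligands, and NF-kB and NFAT factors are known to act at the promoters of some of them. Pentoxifylline is a phosphodiesterase inhibitor long known to lower TNF production.

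The members differ in where they lie in the genome, given on GRCm38 (mm10) with GENCODE M21 gene records, all of them protein-coding. Ltb (chr17:35194439-35196320, plus strand), Tnf (chr17:35199381-35202007, minus strand) and Lta (chr17:35203165-35205351, minus strand) are neighbours, with 3060 bases between Ltb and Tnf and 1157 bases between Tnf and Lta. Tnfsf14 (chr17:57189492-57194177, minus strand) lies elsewhere on the same chromosome. The others are Tnfsf8 (chr4:63831308-63861347, minus strand), Tnfsf10 (chr3:27317028-27342427, plus strand), Tnfsf11 (chr14:78277445-78308043, minus strand), Cd40lg (chrX:57212143-57224042, plus strand) and Fasl (chr1:161780689-161788495, minus strand).

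Sequence before the start site was matched for 8 of the 9 members from RefSeq (GRCm38.p6) and searched on both strands, over 250 bases, for the NF-kB (kB) consensus, the AP-1 motif TGANTCA and the cAMP response element TGACGTCA. The kB consensus was found in 1 of 8 members, Ltb, as GGAAAGTCCC from 87 to 78 bases before the RefSeq start, against 7.25% of 32851 such windows of all genes. TGANTCA was found in 1 of 8, Tnfsf14, as TGAGTCA from 160 to 154 bases before the start, against 6.75% of windows. TGACGTCA was found in 0 of 8, against 1.55% of windows. None of these motifs overlapped another in these windows, and a match describes letters, not a site in use. The sequences of the 3 neighbours, whose differences with pentoxifylline are set side by side below, and of Tnfsf14 are shown 5′ to 3′ on the strand of each gene, ending at the gene record or a few bases before it, with motif matches in capitals. They span chr17:35202008-35202257 for Tnf, chr17:35205352-35205601 for Lta, chr17:35194257-35194438 for Ltb and chr17:57194182-57194431 for Tnfsf14.
Tnf: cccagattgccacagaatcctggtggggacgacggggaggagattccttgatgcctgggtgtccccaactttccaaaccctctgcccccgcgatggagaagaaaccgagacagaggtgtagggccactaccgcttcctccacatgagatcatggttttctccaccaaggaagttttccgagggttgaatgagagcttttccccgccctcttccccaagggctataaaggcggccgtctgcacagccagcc
Lta: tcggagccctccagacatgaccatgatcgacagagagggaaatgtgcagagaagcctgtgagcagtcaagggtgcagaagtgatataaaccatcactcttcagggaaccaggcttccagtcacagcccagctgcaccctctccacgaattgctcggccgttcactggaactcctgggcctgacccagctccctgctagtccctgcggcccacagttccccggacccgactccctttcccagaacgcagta
Ltb: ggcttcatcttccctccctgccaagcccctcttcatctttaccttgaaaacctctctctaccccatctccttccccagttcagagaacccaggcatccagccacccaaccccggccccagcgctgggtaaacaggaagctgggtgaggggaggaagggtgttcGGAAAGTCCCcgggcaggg
Tnfsf14: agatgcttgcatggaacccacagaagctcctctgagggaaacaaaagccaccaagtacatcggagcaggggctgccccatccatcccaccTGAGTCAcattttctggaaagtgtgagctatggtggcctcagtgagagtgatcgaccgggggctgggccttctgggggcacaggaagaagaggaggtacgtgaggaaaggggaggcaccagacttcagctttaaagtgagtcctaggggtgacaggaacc

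Values are RPKM, read counts divided by gene length and by library size, and those of the sorted set had been adjusted by the authors in a way the sources used here do not describe. The design text gives 30M reads per sample. Read from the steps between low values, the other stimulated libraries had between 0.682 and 0.949 of the depth of water replicate 1, while depth in the sorted set is unknown. Both sets were tested separately in limma on log2(RPKM + 0.5), and a difference was called where the p-value, adjusted by Benjamini-Hochberg over all genes tested (9945 and 10656), was under 0.05. All 9 members passed the filter of at least 1 RPKM in at least 2 libraries in both sets. Fold differences on this scale are smaller than those of the raw values for low genes. Rel was at 55.1 and 55.8 RPKM in the stimulated WT libraries with water, and at 2.44 and 25.0 RPKM in c-Rel-deficient replicates 1 and 2, so replicate 2 retained part of the transcript. In the sorted set Rel was at 1.39 to 5.37 RPKM in c-Rel-deficient and 10.9 to 22.0 RPKM in WT libraries. Rela was at 46.8 to 69.4 RPKM in p65-deficient and 62.3 to 71.5 RPKM in WT libraries, and its transcript level therefore does not check those labels. Foxp3 was at 28.1 RPKM or more in each library, and 0 of 6 Treg and CD4 T cell markers were under 1 RPKM throughout any group. Cd44, a gene of the sort, split the subsets, at 6.52 to 19.4 RPKM in rTreg and 26.4 to 61.2 RPKM in aTreg libraries. The aTreg libraries numbered 3 were the lowest of their groups, with Cd44 at 26.4 (WT) and 32.9 RPKM (c-Rel-deficient).

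Pentoxifylline lowered most of the ligands in stimulated WT Tregs and raised 1. Of the 9 members, 6 fell (Tnf, Lta, Tnfsf10, Tnfsf11, Tnfsf14 and Cd40lg) and 1 rose (Tnfsf8), while 43.5% of all genes tested were called, 23.9% as lower and 19.6% as higher. All drug-treated libraries lay below all water libraries in 7 members, against 38.3% of all genes. The median difference over the members was -1.46 on the log2 scale, against 0.00134 over all genes tested. The 9 values ranged from -3.18 for Tnf to 1.24 for Tnfsf8. Adjusting the p-values of the authors' deposited table in the same way over all its genes called 7 members lower and 1 higher, against 22.7% of all its genes, and Ltb was the member it added. These cells are bulk samples, in which fewer cells expressing a gene and less RNA per cell cannot be told apart.

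**Figure D1:**
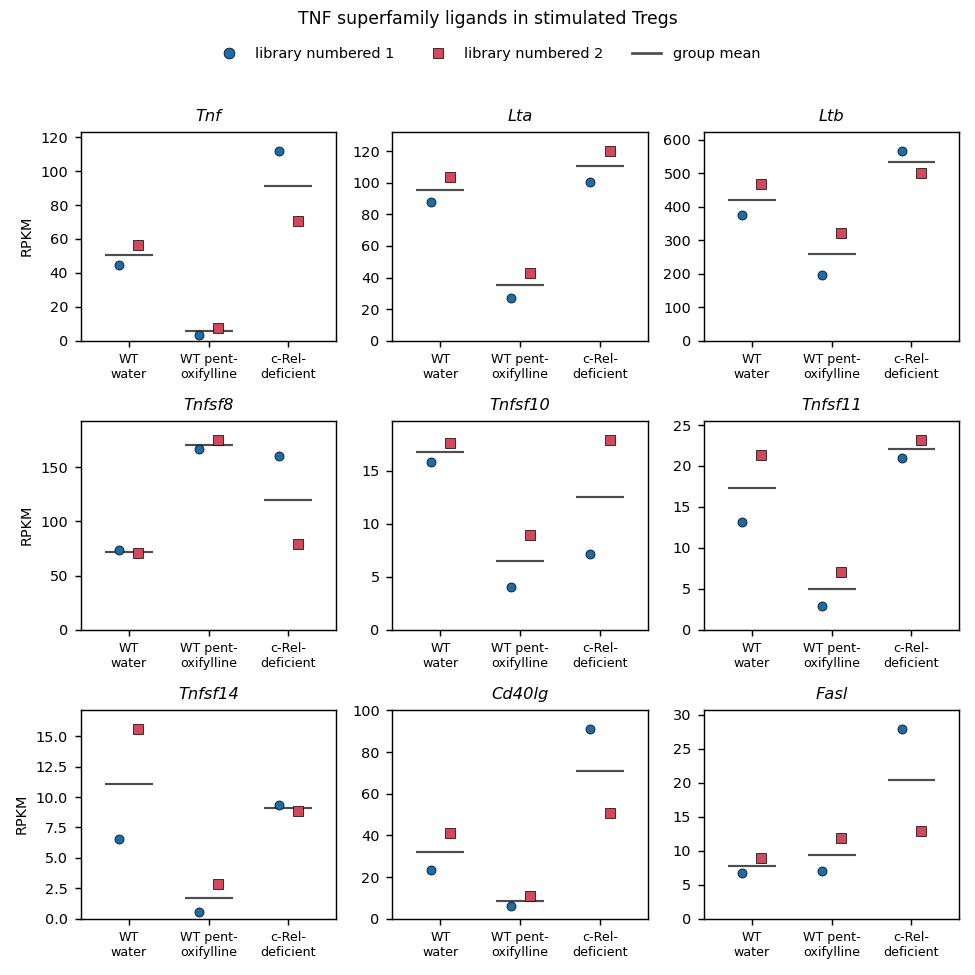
RPKM (vertical axes, linear from 0) of each ligand in the 6 stimulated libraries, by group; points are libraries by replicate number and bars are group means. The 2 pentoxifylline libraries lie below both water libraries for 7 of the 9 ligands and above them for Tnfsf8.

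Tnf encodes TNF, the cytokine for which the family is named, which acts through TNFR1 and TNFR2. With water its level was 44.9 and 56.1 RPKM, and with pentoxifylline 3.41 and 7.52 RPKM. Both treated libraries were far below both controls, and the difference was -3.18 on the log2 scale (SE 0.35, adjusted p = 0.000931 in limma), a ratio of 0.110. Its neighbour Lta encodes lymphotoxin alpha, which binds TNF receptors as a homotrimer. Lta was at 87.6 and 103.5 RPKM with water and at 27.2 and 42.8 RPKM with the drug. The groups did not overlap and differed by -1.46 (SE 0.23, adjusted p = 0.00266). Ltb encodes lymphotoxin beta, the membrane partner of lymphotoxin alpha in the heterotrimer that binds the lymphotoxin beta receptor. Ltb was at 376 and 467 RPKM with water and at 198 and 321 RPKM with the drug, the highest levels of any member in each library. Its groups did not overlap either, but its difference of -0.73 (SE 0.26, adjusted p = 0.0543) missed the threshold in limma, while the authors' deposited table gave -0.91 with an adjusted p of 0.000339. Along the locus, the difference was thus -0.73 for Ltb, -3.18 for Tnf and -1.46 for Lta, and differences between genes were not tested.

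Tnfsf8 encodes CD30 ligand. It was at 73.5 and 70.7 RPKM with water and rose to 167 and 176 RPKM with pentoxifylline. The libraries of each group lay close together, and the difference was 1.24 (SE 0.29, adjusted p = 0.0132). Tnfrsf8, which encodes its receptor CD30, was at 69.4 and 64.98 RPKM with water and at 10.4 and 22.2 RPKM with the drug. It fell by 2.10 on the log2 scale (SE 0.54, adjusted p = 0.0182), opposite to the ligand.

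Among the members with other roles, Tnfsf11 encodes RANKL, which acts on osteoclast precursors, dendritic cells and thymic epithelium. It fell from 13.1 and 21.4 RPKM to 2.91 and 7.02 RPKM (log2 difference -1.77, SE 0.37, adjusted p = 0.00850). Cd40lg encodes CD40 ligand, the helper signal to B cells and dendritic cells, and went from 23.3 and 41.0 RPKM to 6.09 and 11.0 RPKM (-1.85, SE 0.39, adjusted p = 0.00836). Tnfsf14 encodes LIGHT, which binds HVEM and the lymphotoxin beta receptor. It was at 6.55 and 15.6 RPKM with water and at 0.524 and 2.87 RPKM with the drug (-2.52, SE 0.57, adjusted p = 0.0110). In these 3 genes no treated library reached a control library. Tnfsf10 encodes TRAIL and Fasl encodes Fas ligand, both of which engage death receptors. Tnfsf10 fell from 15.8 and 17.6 RPKM to 4.03 and 8.88 RPKM (-1.40, SE 0.45, adjusted p = 0.0400). Fasl was at 6.66 and 8.93 RPKM with water and at 6.99 and 11.9 RPKM with the drug. The Fasl groups overlapped, and the difference of 0.23 had a 95% interval from -0.66 to 1.12 (adjusted p = 0.654).

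These calls rest on 2 libraries a group, and the main test did not treat same-numbered libraries as pairs. Deviations from group means correlated at 0.40 between same-numbered water and pentoxifylline libraries, and no source says whether these are pairs. Without water replicate 2, which was above water replicate 1 in 8 of the 9 members, 2 stayed called, Tnf (-3.02) and Lta (-1.34), and the share of all genes called fell to 22.6%. Tnfsf10 also lost its call without water replicate 1 or pentoxifylline replicate 1 (adjusted p = 0.103 and 0.202) or with no filter on low values (adjusted p = 0.0961), and Tnfsf8 without pentoxifylline replicate 1 (adjusted p = 0.0530), while Ltb gained one without pentoxifylline replicate 2 (-1.08, adjusted p = 0.0220). Summed levels of 7 B cell markers were 40.4 to 52.2 RPKM with water, 12.5 to 19.5 RPKM with pentoxifylline and 8.69 to 8.93 RPKM in c-Rel-deficient libraries, with 2, 2 and 3 of the 7 under 1 RPKM in each library. Most of the difference between water and the drug lay in 3 class II genes, H2-Eb1, H2-Ab1 and H2-Aa (H2-Aa at 13.6 and 17.6 against 6.36 and 2.70 RPKM), while Cd79a was at 1.62 and 1.198 with water and 1.82 and 1.62 RPKM with the drug, and Ms4a1 was under 1 RPKM. The 5 listed markers of NK and cytotoxic cells summed to 37.1 to 56.9, 8.83 to 10.7 and 14.9 to 35.4 RPKM in the same groups, with 3 under 1 RPKM throughout. Nkg7 carried the difference between water and the drug (31.7 and 50.2 against 1.49 and 3.87 RPKM), and Prf1 overlapped between water and the drug (4.83 and 5.91 against 6.20 and 5.35 RPKM). The 7 stress genes summed to 491 to 517, 624 to 685 and 399 to 487 RPKM. Junb was higher under the drug (389 and 349 against 555 and 512 RPKM), and Fos, Jun and Atf3 were lower in both libraries. Hspa1a and Hspa1b, under 1 RPKM with water, were higher in both drug libraries (0.455 to 6.14 and 1.12 to 7.59 RPKM), and Dnajb1 overlapped. Some of these markers are also expressed by activated T cells, and their part in the ligand levels was not tested.

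**Figure D2:**
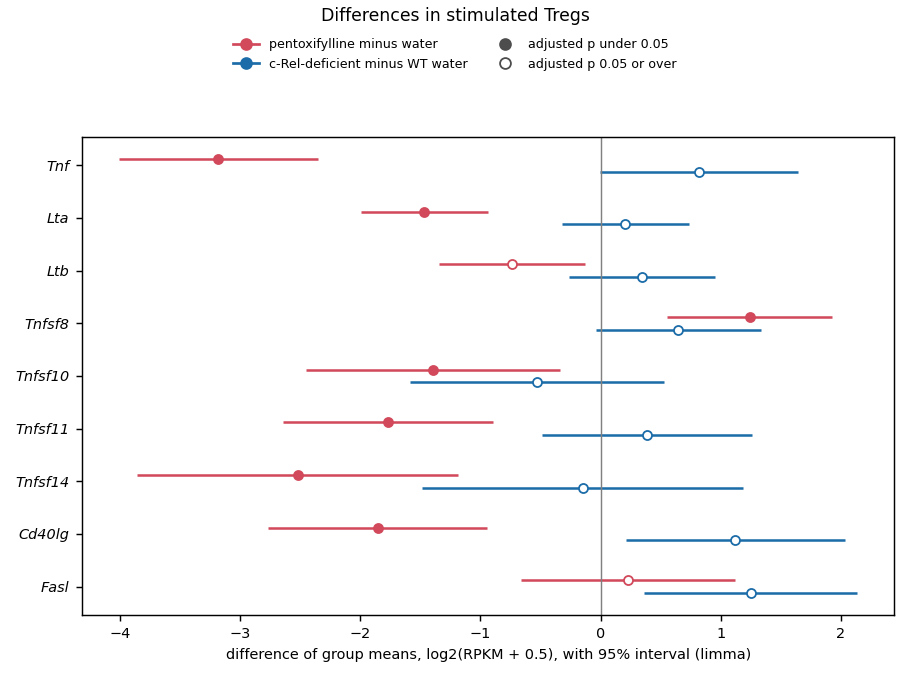
Difference of group means on the log2(RPKM + 0.5) scale (horizontal axis) for each ligand in stimulated Tregs, with 95% intervals from limma; red is pentoxifylline minus water and blue is c-Rel-deficient minus WT with water, which share the 2 water libraries. Filled points, at an adjusted p under 0.05, appear only in red, from -3.18 for Tnf to 1.24 for Tnfsf8.

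Loss of c-Rel in stimulated Tregs went with higher levels of several ligands, none of them called in limma. Of the 9 members 0 were called, as were 0% of all genes tested, and 2 members (Cd40lg and Fasl) were among the 791 genes (7.95%) with an unadjusted p under 0.05. Both c-Rel-deficient libraries were above both water libraries in 5 members (Tnf, Ltb, Tnfsf8, Cd40lg and Fasl), against 24.2% of all genes tested, and below them in 0. The median difference was 0.39 over the members and 0.06 over all genes tested. The authors' deposited table called 4 members higher and 1 lower, against 2.14% of its genes. In the authors' deposited table the higher members were Tnf (0.94, adjusted p = 0.00949), Tnfsf8 (0.96, adjusted p = 0.000752), Cd40lg (1.19, adjusted p = 0.00647) and Fasl (1.45, adjusted p = 0.000441). The lower member in the authors' deposited table was Tnfsf10 (-0.89, adjusted p = 0.0225).

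Fasl was at 27.9 and 12.9 RPKM in c-Rel-deficient replicates 1 and 2, against 6.66 and 8.93 RPKM with water (log2 difference 1.25, SE 0.38, unadjusted p = 0.0125, adjusted p = 0.480 in limma). Cd40lg was at 91.2 and 50.7 RPKM against 23.3 and 41.0 RPKM (1.12, SE 0.39, adjusted p = 0.520). Tnf was at 112 and 70.5 RPKM against 44.9 and 56.1 RPKM (0.82, SE 0.35, adjusted p = 0.626). In each of these 3 genes, and in Tnfsf8 at 161 and 79.6 RPKM against 73.5 and 70.7 RPKM, replicate 1 was the higher of the c-Rel-deficient libraries. Replicate 1 was also the library with less Rel transcript (2.44 against 25.0 RPKM) and less Foxp3 (107 against 193 RPKM, with 237 and 290 RPKM under water). Whether either bears on the ligands was not tested. Without replicate 2, Fasl (1.79, adjusted p = 0.0354) and Tnfsf8 (1.15, adjusted p = 0.0283) passed the threshold, with 2.87% of all genes called.

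The remaining ligands differed less with c-Rel loss, or unevenly. Lta was at 100.5 and 120.4 RPKM (0.21, 95% interval -0.32 to 0.74) and Ltb at 568 and 501 RPKM (0.35, 95% interval -0.26 to 0.95). Tnfsf11 was at 21.004 and 23.2 RPKM (0.39) and Tnfsf14 at 9.38 and 8.86 RPKM (-0.15), both overlapping the water libraries. Tnfsf10 differed between its own replicates, at 7.17 and 17.9 RPKM, and overlapped the water libraries.

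Set against c-Rel-deficient cells, pentoxifylline-treated WT cells had lower levels of 6 members, with 48.4% of all genes tested called in that comparison, 26.8% as lower. Tnf differed by -4.00 (SE 0.35), Cd40lg by -2.98 (SE 0.39), Tnfsf14 by -2.37 (SE 0.57) and Tnfsf11 by -2.16 (SE 0.37), with adjusted p from 0.000346 to 0.0123 in limma. Lta (-1.67, adjusted p = 0.00126) and Ltb (-1.08, adjusted p = 0.0124) were also lower. Fasl (-1.02, adjusted p = 0.0588), Tnfsf10 (-0.87, adjusted p = 0.148) and Tnfsf8 (0.59, adjusted p = 0.131) were not called. Without c-Rel-deficient replicate 2, which retained Rel transcript, Fasl was called as well (-1.56, adjusted p = 0.00821), as it was without pentoxifylline replicate 2 (-1.38, adjusted p = 0.0408). Without c-Rel-deficient replicate 1, Tnfsf8 (1.099, adjusted p = 0.00563) and Tnfsf10 (-1.50, adjusted p = 0.0231) were called, and Ltb lost its call (adjusted p = 0.0558), as it did without pentoxifylline replicate 1 (adjusted p = 0.0871). For Tnf the order of the 3 groups was c-Rel-deficient (mean 91.3 RPKM), water (50.5 RPKM) and pentoxifylline (5.46 RPKM), with no overlap between neighbours in that order. Cd40lg and Ltb followed the same order without overlap, and Tnfsf8 ran from pentoxifylline (171 RPKM) through c-Rel-deficient (120 RPKM) to water (72.1 RPKM). The share of all genes with 3 groups ordered without overlap was not computed. Between pairs of groups, in either direction, 75.5% of all genes did not overlap for pentoxifylline against water. This was 40.5% for c-Rel-deficient against water and 77.5% for pentoxifylline against c-Rel-deficient cells. The labels do not say whether the c-Rel-deficient cells received water, so diluent and genotype cannot be told apart there.

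The rest of the pathway was followed through 4 lists. Of 6 tested receptors of these ligands, 1 rose and 2 fell with pentoxifylline, and these and the next counts stand against 19.6% of all genes tested that rose and 23.9% that fell. Besides Tnfrsf8, Tnfrsf14, which encodes the LIGHT receptor HVEM, fell by 0.56 (adjusted p = 0.0212 in limma), and Tnfrsf1a, which encodes TNFR1, rose by 0.64 (adjusted p = 0.0343). Of 16 tested genes of receptor signalling, 4 rose and 0 fell. Tnfaip3, which encodes A20, an inhibitor of signalling from TNF receptors to NF-kB, went from 85.1 and 80.4 RPKM with water to 628 and 439 RPKM with the drug. That rise, 2.66 on the log2 scale (SE 0.19, adjusted p = 0.000523), was the largest of the 4, and Birc2 (0.87) and Map3k14 (0.83), which encode the ubiquitin ligase cIAP1 and the kinase NIK, followed. Of 9 tested genes of mRNA decay and ligand shedding, Zfp36l2 rose by 1.39 (adjusted p = 0.00147 in limma) and Zfp36 fell by 0.55 (adjusted p = 0.0111). Zfp36 encodes tristetraprolin, a protein that binds Tnf mRNA and promotes its decay. The authors' deposited table called neither Zfp36 (adjusted p = 0.0578) nor Tnfrsf14 (adjusted p = 0.135). It called Tnfrsf8, Tnfrsf1a, Tnfaip3, Birc2, Map3k14 and Zfp36l2 in the same directions as limma. Of the 3 tested ligands of the superfamily outside the 9 members, 0 were called by limma or by the authors' deposited table. With c-Rel loss, 0 genes of any list were called in limma, and the authors' deposited table called 2 receptors lower (Tnfrsf8 and Cd40, the latter under the filter on low values) and 1 signalling gene, Relb, higher. Tnfrsf8 was at 10.6 and 36.0 RPKM in c-Rel-deficient replicates 1 and 2, below both water libraries, and the authors' deposited table gave -2.14 (adjusted p = 4.04e-14). Relb, which encodes an NF-kB subunit, was at 104.2 and 75.9 RPKM against 53.4 and 58.8 RPKM, and the authors' deposited table gave 0.79 (adjusted p = 0.0227). These 3 genes were named after their values were seen.

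Against c-Rel-deficient cells, pentoxifylline went with 1 receptor higher and 1 lower, 6 signalling genes higher and 3 lower, 1 decay or shedding gene higher and 2 lower, and 1 other ligand higher. Over all genes tested, 21.6% were higher and 26.8% lower. Those with the largest differences within each list, up to 3 a list, were Tnfaip3 (3.03), Zfp36l2 (1.24), Birc2 (1.11), Tnfsf9 (0.95), which encodes 4-1BB ligand, Zfp36 (-0.89), Traf1 (0.79), Tnfrsf14 (-0.78), Adam10 (-0.49) and Fas (0.48).

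In sorted WT cells, aTregs held more Tnfsf11 and Tnfsf10 than rTregs, while the other 7 members were not called. These 2 of 9 compare with 12.2% of all genes tested. The authors' deposited table called Tnfsf11 and Tnfsf14 higher, against 11.2% of its genes. The median difference was 0.06 over the members and -0.06 over all genes tested. Ltb was again the highest member in each library, at 402 to 725 RPKM over all 13 libraries.

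**Figure D3:**
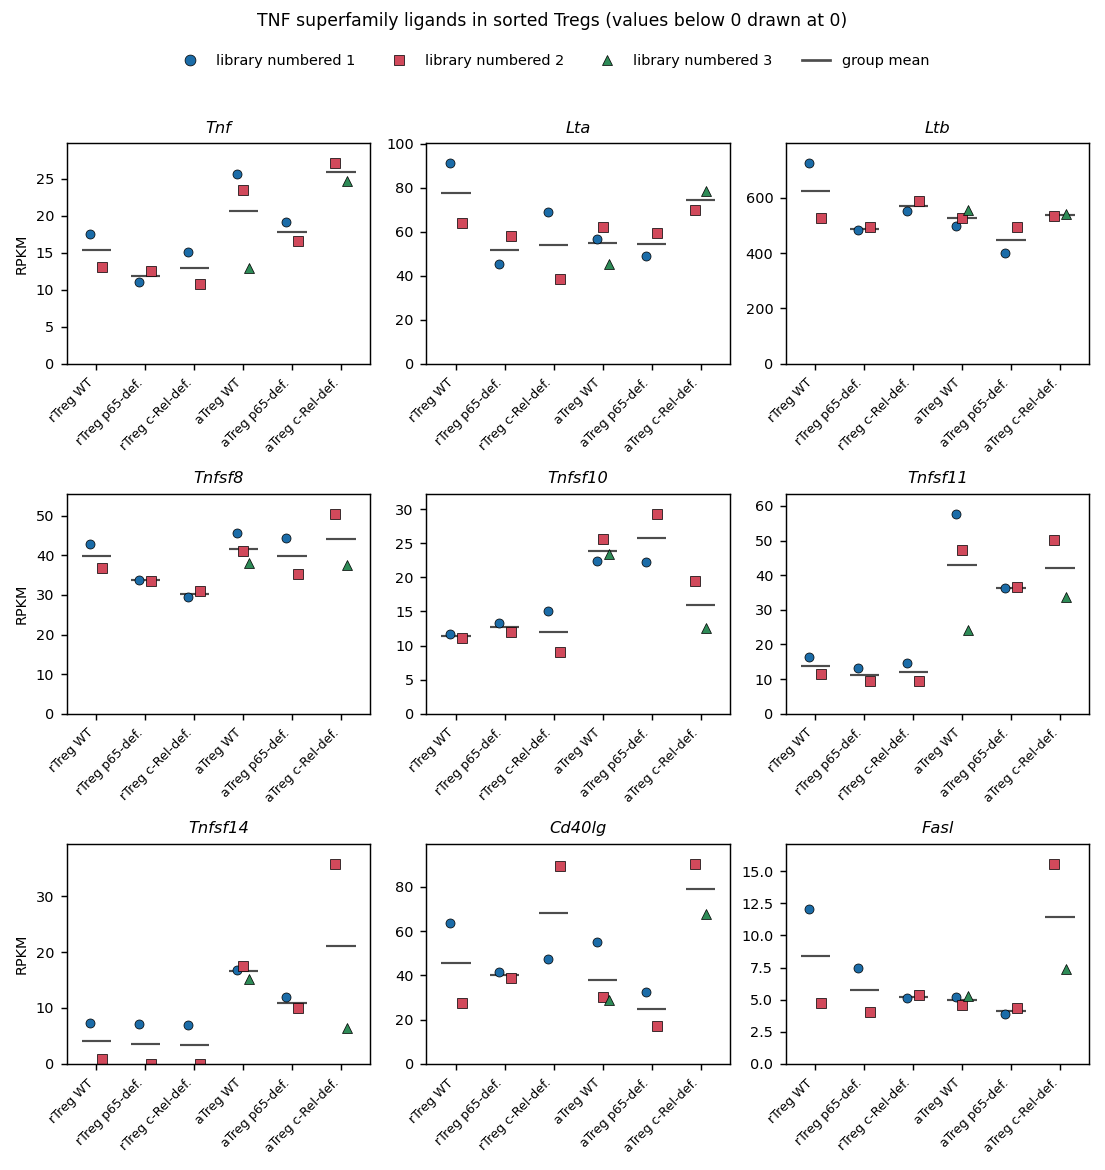
RPKM (vertical axes, linear from 0; values below 0 drawn at 0) of each ligand in the 13 sorted libraries, by subset and genotype; points are libraries by replicate number and bars are group means. Tnfsf11 is higher in all 7 aTreg than in all 6 rTreg libraries, and Ltb spans 402 to 725 RPKM.

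Tnfsf11 was at 16.5 and 11.4 RPKM in WT rTregs and at 57.8, 47.2 and 24.2 RPKM in WT aTregs. The subsets did not overlap, and the difference was 1.53 (SE 0.35, adjusted p = 0.0273 in limma), while the authors' deposited table gave 2.37 (adjusted p = 1.13e-31). In p65-deficient cells it was at 13.2 and 9.44 RPKM in rTregs and at 36.4 and 36.5 RPKM in aTregs (1.66, SE 0.38, adjusted p = 0.0460). It was the 1 member called there, with 3.17% of all genes tested. In c-Rel-deficient cells it was at 14.7 and 9.35 RPKM in rTregs and at 50.3 and 33.7 RPKM in aTregs. That difference, 1.77 (SE 0.38), was not called (adjusted p = 0.173), in a comparison in which limma called 0 of 9 members and 0% of all genes, and gave 1494 genes (14%), 4 of them members, an unadjusted p under 0.05. With a block for replicate number, Tnfsf11 was called there (2.35, adjusted p = 0.000764), as were Tnf and Tnfsf8, with 8.46% of all genes. The authors' deposited table holds no subset comparison outside WT. Across genotypes all 7 aTreg libraries, from 24.2 to 57.8 RPKM, were above all 6 rTreg libraries, from 9.35 to 16.5 RPKM.

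The calls for Tnfsf11 depended on single libraries. In WT, leaving out 1 library gave differences from 1.27 to 1.89 and adjusted p from 0.00336 to 0.101, lowest without aTreg replicate 3 and over the threshold without any 1 of the other 4. In p65-deficient cells the call was lost without any 1 of the 4 libraries, at differences from 1.44 to 1.89. Without both libraries numbered 3, a setting chosen after the values were seen, the c-Rel-deficient difference was 2.05 (adjusted p = 0.0243). The 6 markers of NK and cytotoxic cells summed to 22.2 to 38.8 RPKM in WT rTregs and 56.2 to 117 RPKM in WT aTregs, with 3 of the 6 under 1 RPKM in each library of both. Nkg7 carried this (24.1 and 13.3 against 111, 58.7 and 47.1 RPKM), while Prf1 went the other way (10.5 and 8.40 against 1.73, 1.97 and 6.18 RPKM), and B cell markers summed to 17.8 to 31.6 and 15.5 to 36.3 RPKM. Their part in the subset differences was not tested.

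**Figure D4:**
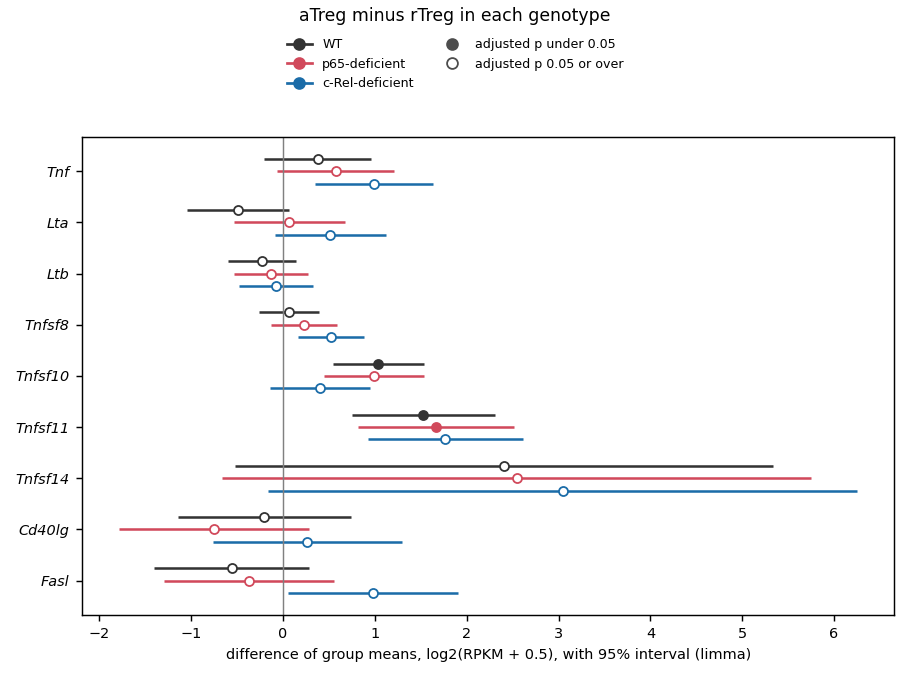
Difference between aTreg and rTreg group means on the log2(RPKM + 0.5) scale (horizontal axis) for each ligand in WT, p65-deficient and c-Rel-deficient cells, with 95% intervals from limma. Tnfsf11 lies between 1.53 and 1.77 in the 3 genotypes, and the intervals of Tnfsf14 are the widest.

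Tnfsf10 was at 11.6 and 11.1 RPKM in WT rTregs and at 22.4, 25.7 and 23.4 RPKM in WT aTregs. Libraries within each group were close, and the difference was 1.04 (SE 0.22, adjusted p = 0.0241 in limma), while the authors' deposited table gave 1.09 with an adjusted p of 0.103. The call was lost without rTreg replicate 1, aTreg replicate 1 or aTreg replicate 2, at adjusted p from 0.0785 to 0.0848. In p65-deficient cells it was at 13.4 and 12.0 RPKM in rTregs and at 22.3 and 29.4 RPKM in aTregs (0.99, adjusted p = 0.0561). In c-Rel-deficient cells the subsets overlapped, with 15.0 and 9.01 RPKM in rTregs and 19.4 and 12.5 RPKM in aTregs (0.41, 95% interval -0.14 to 0.95). The test of whether the effect of c-Rel loss differed between aTregs and rTregs gave -0.63 for Tnfsf10 (SE 0.33, adjusted p = 0.898).

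Tnfsf14 was at 16.9, 17.6 and 15.3 RPKM in WT aTregs. In rTregs its level followed the replicate number: the libraries numbered 1 held 7.39 (WT), 7.19 (p65-deficient) and 6.91 RPKM (c-Rel-deficient). Those numbered 2 held 0.807, -0.152 and -0.201 RPKM, where values below 0 come from the undescribed adjustment. All 3 WT aTreg libraries were above both WT rTreg libraries, as in 19% of all genes tested. The wide spread gave a difference of 2.41 with an SE of 1.32 (adjusted p = 0.228 in limma). The authors' deposited table called it, at 2.58 (adjusted p = 3.89e-05). In aTregs it was at 11.9 and 10.0 RPKM in p65-deficient libraries, below all WT libraries, and at 35.8 and 6.45 RPKM in c-Rel-deficient libraries numbered 2 and 3.

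Tnf was not called between the subsets in any genotype. It was at 17.6 and 13.1 RPKM in WT rTregs and at 25.6, 23.5 and 12.9 RPKM in WT aTregs, where replicate 3 fell within the rTreg range. The WT difference was 0.38 (SE 0.26, adjusted p = 0.336), and without aTreg replicate 3 it was 0.68 (adjusted p = 0.0306). It was 0.57 in p65-deficient (19.1 and 16.5 against 11.1 and 12.6 RPKM) and 0.99 in c-Rel-deficient cells (27.1 and 24.7 against 15.2 and 10.8 RPKM), with adjusted p of 0.273 and 0.206. In both the subsets did not overlap, as in 27.2% (p65-deficient) and 21.9% (c-Rel-deficient) of all genes tested in the same direction. WT aTreg replicate 3 also held less Cd44 (26.4 RPKM, against 49.4 and 45.2 RPKM in replicates 1 and 2), and c-Rel-deficient aTreg replicate 3 held less than replicate 2 (32.9 against 61.2 RPKM). The p65-deficient aTreg libraries had Cd44 at 34.5 and 32.8 RPKM. The part of sort purity in the ligand levels was not tested.

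**Figure D5:**
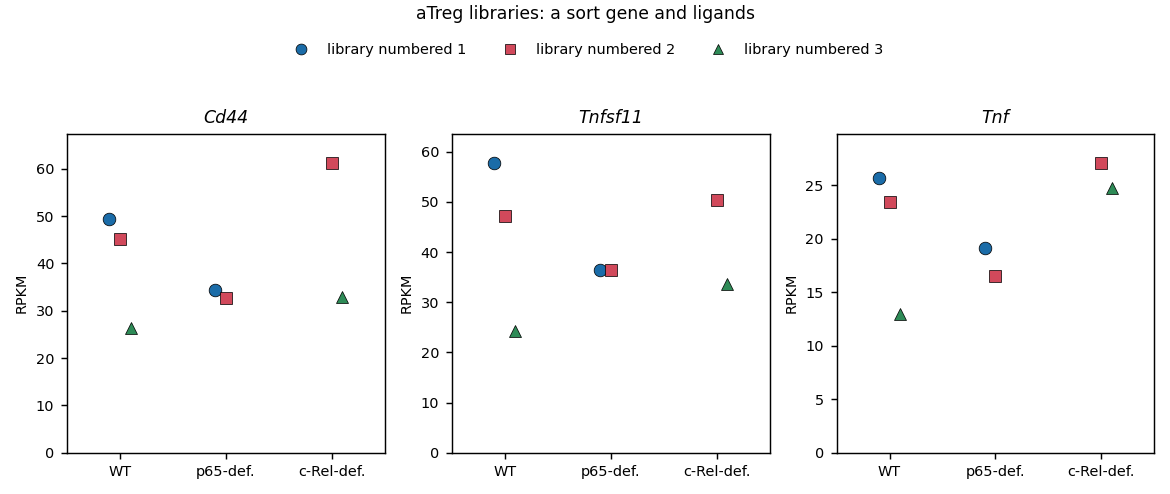
RPKM (vertical axes, linear from 0) of the sort gene Cd44 and of the ligands Tnfsf11 and Tnf in the 7 aTreg libraries, by genotype and replicate number, points being single libraries. The libraries numbered 3 hold the lowest Cd44 of their genotype, at 26.4 and 32.9 RPKM, and the lowest Tnfsf11, at 24.2 and 33.7 RPKM.

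The lymphotoxin genes and the remaining ligands were not called between the WT subsets. Lta was at 91.0 and 64.0 RPKM in rTregs and at 56.5, 62.3 and 45.3 RPKM in aTregs (-0.49, SE 0.25, adjusted p = 0.194). Ltb was at 725 and 526 RPKM in rTregs and at 497, 526 and 556 RPKM in aTregs (-0.23, 95% interval -0.60 to 0.14). Tnfsf8 was at 42.8 and 36.8 RPKM in rTregs and at 45.7, 41.0 and 38.2 RPKM in aTregs (0.06, 95% interval -0.27 to 0.39). Of these 3 genes, Lta alone separated the subsets, with all aTreg libraries below both rTreg libraries. Over all genes tested, 21.9% were lower in this way, and 40.9% did not overlap in either direction. Cd40lg was at 63.8 and 27.6 RPKM in rTregs and at 55.1, 30.0 and 29.0 RPKM in aTregs (-0.20, SE 0.42). Fasl was at 12.1 and 4.71 RPKM in rTregs and at 5.21, 4.56 and 5.25 RPKM in aTregs (-0.56, SE 0.38). For both genes rTreg replicate 1 was above the rest. Without rTreg replicate 2, Fasl was lower in aTregs (-1.19, adjusted p = 0.0449).

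In the same WT comparison, 2 of 6 tested receptors were higher in aTregs and 1 was lower. This and the next counts stand against 7.54% of all genes tested called higher and 4.68% called lower. Tnfrsf1b, which encodes TNFR2, a receptor abundant on activated Tregs, was at 27.4 and 31.7 RPKM in rTregs and at 146, 127 and 80.3 RPKM in aTregs (1.94, SE 0.24, adjusted p = 0.00526 in limma). Tnfrsf8 was higher by 2.93 (SE 0.70, adjusted p = 0.0309), and Fas, which encodes the receptor of Fas ligand, was lower (-0.60, adjusted p = 0.0278). Of 17 signalling genes, Casp8, which encodes the caspase downstream of death receptors, was lower (-0.84, adjusted p = 0.0329) and 0 were higher in limma. Of 9 decay and shedding genes 2 were higher, Adam17 (0.62, adjusted p = 0.0271), the protease that sheds TNF, and Adam10 (0.55, adjusted p = 0.0260). The authors' deposited table called Tnfrsf1b, Tnfrsf8 and Casp8 in the same directions. It also called the signalling gene Nfkb2 higher (0.95, adjusted p = 0.0280), a gene named after its value was seen. In all, it called 3 receptors, 1 signalling gene and 3 other ligands higher, some of them under the filter on low values, against 7.98% of its genes. It did not call Fas (adjusted p = 0.247), Adam17 (adjusted p = 0.0800) or Adam10 (adjusted p = 0.199). Among the other ligands, Tnfsf13b, which encodes BAFF, was at 0.782 to 1.25 RPKM in aTregs and 0.139 and 0.169 RPKM in rTregs. It passed the filter on low values only through the WT aTreg libraries, so its test in this comparison is not read. In p65-deficient cells Tnfrsf1b (1.77, adjusted p = 0.00979) was the 1 gene of the 4 lists called, and in c-Rel-deficient cells 0 were.

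Deletion of either NF-kB subunit left no member called in sorted cells. With p65 loss limma called 0 of 9 members and 0% of genes in rTregs, with 726 genes (6.81%) and 0 members at an unadjusted p under 0.05. In aTregs it also called 0 of 9 and 0%, with 365 genes (3.43%) and 0 members at that unadjusted level. The authors' deposited table called 0 members in either subset, where it called 0.0337% and 0.196% of its genes. The members lay mostly below WT: 8 of 9 in rTregs (median -0.34, against -0.03 over all genes) and 8 of 9 in aTregs (median -0.15, against -0.01). WT rTreg replicate 1 was above replicate 2 in each member. With 1 library left out, the rTreg difference could change sign for Cd40lg (-0.66 to 0.53), Fasl (-1.07 to 0.20) and Tnfsf14 (-2.68 to 1.26), while the others kept theirs. In aTregs the sign could change for Tnf, Lta, Tnfsf8, Tnfsf10 and Tnfsf11.

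In rTregs, 4 members were lower in both p65-deficient than in both WT libraries, against 17.2% of all genes tested. These were Lta, at 45.5 and 58.1 RPKM (-0.57, SE 0.27, adjusted p = 0.749), Ltb, at 482 and 494 RPKM (-0.34), Tnf, at 11.1 and 12.6 RPKM (-0.35), and Tnfsf8, at 33.8 and 33.6 RPKM (-0.23). Tnfsf10 was higher in both, at 13.4 and 12.0 RPKM (0.15). The 7 stress genes summed to 526 to 866 RPKM in WT and 427 to 453 RPKM in p65-deficient rTregs, with Junb at 501 and 302 against 247 and 234 RPKM, and their part in these values was not tested. In aTregs, 3 members were lower in both p65-deficient than in all WT libraries, against 11.7% of all genes. They were Ltb, at 402 and 494 RPKM (-0.24, 95% interval -0.61 to 0.13), Tnfsf14 (-0.58) and Fasl, at 3.90 and 4.33 RPKM (-0.25). Lta, by contrast, was at 49.1 and 59.2 RPKM in p65-deficient aTregs, within the WT range (-0.01, 95% interval -0.56 to 0.55). Cd40lg was at 32.6 and 17.0 RPKM there and overlapped WT (-0.62, SE 0.42).

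With c-Rel loss limma called 0 of 9 members and 0% of genes in either subset, with 775 genes (7.27%) in rTregs, among them Tnfsf8, and 717 genes (6.73%) in aTregs, among them 3 members, at an unadjusted p under 0.05. The authors' deposited table called 0 members, against 0.027% and 0.52% of its genes. In aTregs, Cd40lg was at 90.4 and 67.8 RPKM, above the WT libraries at 55.1, 30.0 and 29.0 RPKM (1.096, SE 0.42, unadjusted p = 0.0268, adjusted p = 0.602). Fasl was at 15.6 and 7.35 RPKM, above WT at 4.56 to 5.25 RPKM (1.03, SE 0.38, unadjusted p = 0.0213, adjusted p = 0.569), and Lta was at 69.9 and 78.6 RPKM, above WT at 45.3 to 62.3 RPKM (0.45, adjusted p = 0.824). These 3 members without overlap compare with 11.8% of all genes. Tnfsf10 was below WT in both libraries, at 19.4 and 12.5 against 22.4 to 25.7 RPKM (-0.59, SE 0.22, unadjusted p = 0.0239, adjusted p = 0.578). B cell markers summed to 65.9 to 117 RPKM in c-Rel-deficient and 15.5 to 36.3 RPKM in WT aTregs, with 2 of the 7 under 1 RPKM in each library of both groups. The class II genes carried this (H2-Ab1 at 45.6 and 20.6 RPKM, against -3.00 to 8.24 RPKM in WT), and Ms4a1 was under 1 RPKM. NK and cytotoxic markers summed to 82.0 to 176 against 56.2 to 117 RPKM, among them Klrb1c at 25.0 and 3.60 against at most 2.88 RPKM, with 2 and 3 of the 6 under 1 RPKM in each library. Myeloid markers summed to 6.27 to 11.9 against 4.08 to 6.19 RPKM, with 5 and 6 of the 8 under 1 RPKM. Their part in these values was not tested.

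In c-Rel-deficient rTregs, Tnfsf8 was at 29.4 and 31.0 RPKM, below WT at 42.8 and 36.8 RPKM (-0.39, SE 0.16, unadjusted p = 0.0384, adjusted p = 0.681). It was the 1 member without overlap in the lower direction, against 14.2% of all genes, and 0 were in the higher direction. Cd40lg was at 47.3 and 89.4 RPKM (0.63, SE 0.47). Replicate 2, the higher one, held the lowest Foxp3 of the sorted libraries, at 28.1 RPKM, and the part of this in its ligand levels was not tested. Lta was at 69.1 and 38.7 RPKM (-0.56, SE 0.27), and Tnf at 15.2 and 10.8 RPKM (-0.24, SE 0.29).

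Of the 4 pathway lists, limma called 0 genes in any of these deletion comparisons. The authors' deposited table called 1 signalling gene lower with p65 loss in aTregs, Relb (-1.12, adjusted p = 0.0149), and 1 receptor lower with c-Rel loss in aTregs, Tnfrsf8 (-2.03, adjusted p = 5.74e-08), both named after their values were seen. Tnfrsf8 was at 3.95 and -0.165 RPKM in c-Rel-deficient aTregs, against 11.8 to 15.6 RPKM in WT and 7.92 and 8.86 RPKM in p65-deficient aTregs.

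The tests of whether a subunit's effect differed between aTregs and rTregs called 0 members and 0% of genes for p65 and for c-Rel. They gave 0 members among 237 genes (2.22%) and 2 members among 497 genes (4.66%) an unadjusted p under 0.05, the latter being Fasl (1.53, SE 0.56, adjusted p = 0.898) and Lta (1.01, SE 0.37, adjusted p = 0.898). Set against each other within aTregs, p65-deficient and c-Rel-deficient cells differed most in Cd40lg (-1.71, SE 0.47, unadjusted p = 0.00404, adjusted p = 0.483) and Fasl (-1.29, SE 0.42, unadjusted p = 0.0112, adjusted p = 0.592), both lower without p65. Tnfsf10 was higher there (0.69, SE 0.25, unadjusted p = 0.0175, adjusted p = 0.644), and these were 3 of 634 genes (5.95%) at an unadjusted p under 0.05. Both p65-deficient libraries were below both c-Rel-deficient libraries in 5 members, against 19.7% of all genes tested. In rTregs the same comparison gave 215 genes (2.02%) and 0 members an unadjusted p under 0.05, and limma called 0 members and 0% of genes in either subset.

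Cd40lg and Fasl can be set side by side over the contexts of c-Rel loss, each context with its own WT libraries. Cd40lg differed by 1.12 in stimulated cells, 1.096 in aTregs and 0.63 in rTregs. Fasl differed by 1.25 in stimulated cells, 1.03 in aTregs and -0.50 in rTregs. None of these 6 differences was called in limma, and the stimulated and sorted sets, normalised separately, were not tested against each other.

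Over the 13 sorted libraries the members varied by different amounts, with an SD of log2 values from 0.19 for Ltb to 1.96 for Tnfsf14. Genes of like pattern were found as those with the smallest root mean square difference of centred log2 values, among 7891 genes with a mean of at least 5 RPKM. For Tnfsf11, whose SD was 0.93, these were Bmp7 (0.137) and Bhlhe40 (0.160). For Tnf they were Spry1 (0.156) and Rras (0.157), for Lta Rgs1 (0.130) and Tmem158 (0.167), and for Tnfsf10 Slc4a7 (0.153) and Slfn9 (0.163). Ltb and Tnfsf8, which varied least, were nearest to Zfand6 (0.0772) and Nfkbib (0.0778), and to Gtf3c5 (0.107) and Fzr1 (0.114). Cd40lg had Padi2 (0.329) and Eya2 (0.359), Fasl had Dusp6 (0.315) and Cdyl2 (0.345), and Tnfsf14 had Ccr4 (0.561) and Asb2 (0.599), which are larger differences. The points share libraries and the adjustment of the set, and no test was made.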

How the data were processed

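Each set came as 1 table of RPKM per library, made by the authors from total RNA with the TruSeq kit, per the labels' protocols, and using STAR, mm10 and DESeq2 1.10.1, per the submitters' processing notes. For the comparisons made by the authors, the deposited tables also hold a log2 fold change and a p-value, per the file headers. Model terms and the adjustment of the sorted RPKM are not given in the sources used here. In the sorted set 2.53% of values are below 0, the lowest at -30.7, and 15883 values are tied within the 26 same-numbered pairs of libraries, against 0 in the 52 other pairs. Decimal commas were converted to points.

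Of 14310 and 14839 listed genes, 20 and 21 had no library values and were left out. Values below 0 were set to 0. A gene was tested where 2 or more libraries of its set reached 1 RPKM, with limma 3.58.1 (eBayes with trend, R 4.3.3, statmod 1.5.0) on log2(RPKM + 0.5), two-sided, with all groups of a set in 1 fit. Benjamini-Hochberg adjustment was also applied here to the deposited p-values, over the 14290 and 14818 genes with library values. The procedure was also run on simulated data with independent normal noise. These data held no tied values and no deviations shared by same-numbered libraries, so that run does not cover those features. Relative depth was read from 2416 low genes of the stimulated set, whose values were whole multiples of the smallest within 2% in 85.0%. Python 3.11.15, pandas 2.3.3, numpy 2.4.6, scipy 1.17.1 and matplotlib 3.10.9 were used.

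The members, the 4 pathway lists and the marker lists were chosen with earlier results of these data known. Named genes were the members, the label check genes, in each list up to 3 called genes of largest difference, and the 2 genes of most like pattern per member. Tnfsf12 and Tnfsf13 overlap and are not named with values, and 1 label check gene is not reported here. Same-numbered libraries had correlations of deviations from group means of -0.07 to 0.40 in the stimulated and -0.49 to 0.44 in the sorted set, so the numbers were not used as pairs. The tied values enter these correlations in the sorted set, so the correlations do not settle whether its libraries are paired. The 19 libraries fall into 9 groups, with 12 comparisons within sets and 2 tests of a difference between effects. Alternatives were pseudocounts of 0.1 and 1, no filter, a filter of 3 RPKM, scaling by median-of-ratios size factors, eBayes with robust variance, a fit of only the groups compared, a replicate block, the authors' p-values, and each library left out.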

Additional observations from a re-analysis of the deposited data

Results flagged for a closer look

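Tnfsf8 moved in opposite directions with c-Rel loss in different cells. In stimulated Tregs both c-Rel-deficient libraries were above both WT libraries with water (log2 difference 0.65). In rTregs both c-Rel-deficient libraries were below both WT libraries (-0.39). Neither difference was called in limma (adjusted p = 0.651 and 0.681), and the difference between the sets was not tested. No group has 4 or more libraries, so single libraries were not screened for distance from their group.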

How the results depend on the processing

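Of 126 values (9 members in 14 comparisons), 16 were called, and these kept their sign in all 205 alternative values and their call in 179. Counts of called members that moved by more than 1.5 times are given next, along with some smaller changes in counts and in single calls. With pentoxifylline against water the 7 became 2 to 8 when 1 library was left out. With c-Rel loss in stimulated cells the 0 became 0 to 2 when 1 library was left out, and 5 with the authors' deposited p-values. For aTreg against rTreg in WT the 2 became 1 with only the groups compared and 0 to 3 when 1 library was left out. With no filter Tnfsf10 lost its call with pentoxifylline against water (-1.40, adjusted p = 0.0961). In p65-deficient cells the 1 became 0 with a pseudocount of 0.1 or with no filter, 3 with only the groups compared, and 0 without any 1 library. In c-Rel-deficient cells the 0 became 3 with a replicate block (Tnf 1.36, Tnfsf8 0.70 and Tnfsf11 2.35) and 1 without both libraries numbered 3. Pentoxifylline against c-Rel-deficient cells gave 5 to 7 when 1 library was left out, against 6. No source says that replicate numbers pair libraries, and a block for them also called Ltb with pentoxifylline against water (-0.73, adjusted p = 0.0412) and Tnfsf10 with pentoxifylline against c-Rel-deficient cells (-0.87, adjusted p = 0.0308). With the authors' deposited p-values, Ltb with pentoxifylline, Tnfsf14 in WT aTregs and the 5 members with c-Rel loss gained a call, and Tnfsf10 in WT aTregs lost it. Where leaving out a library left 1 in a group, that library was assumed to vary like the other groups. Most groups hold 2 libraries and the depth of the sorted set is unknown, so low values such as Tnfsf14 in rTregs are least certain.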
